A study of Mus musculus with 22 samples.

Results

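The genes described here encode proteins of the cell division cycle, and they were taken by symbol from a list of 41 replication and mitosis genes sorted into G1, replication and mitosis. Of these, 39 had a value among the 13392 genes measured, namely 5 of 5 G1 genes, 11 of 12 replication genes and 23 of 24 mitosis genes. Pcna and Mki67 were not analysed here. The samples were non-tumour liver from 22 male C57BL/6J mice, each measured on 1 array. In the disease model, mice received 1 injection of the carcinogen N-nitrosodiethylamine (DEN) and then weekly carbon tetrachloride (CCl4), which kills hepatocytes and leaves fibrosis and liver tumours. The groups were 3 control mice with healthy liver, which had saline and oil and, by their titles, vehicle; 9 model mice given vehicle for 5 weeks; and 10 model mice given nintedanib at 50 mg/kg for 5 weeks. Nintedanib blocks the receptor kinases for vascular endothelial, platelet-derived and fibroblast growth factors, and both model groups carried the same DEN and CCl4 injury. The labels give no age for the mice. Mice are named below by their title numbers.

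Adult hepatocytes rest outside the cell cycle and re-enter it after injury, and stellate, endothelial and immune cells of a damaged liver divide as well. In G1, cyclin D1 with its kinases releases E2F transcription factors, which turn on cyclin E and the replication genes. The MCM helicase is then loaded on origins by Cdc6 and Cdt1 and unwinds the DNA. The genome is copied with nucleotides made by thymidylate synthase and ribonucleotide reductase. Cyclin A2, the B cyclins and Cdk1 drive the cell into mitosis, where Aurora and Polo kinases, kinesins and the spindle checkpoint part the chromosomes. In quiescent cells the DREAM repressor complex sits on the promoters of many of these genes through a motif called the cell cycle genes homology region (CHR), while NF-Y binds CCAAT boxes and E2F binds its own sites.

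Promoter sequences are shown for the genes that rose in the model and that have a window in the RefSeq promoter set used (build GRCm38.p6), to show the motifs counted below. Ccnd1 and Ccna2 also rose but had no window in that set. Each window runs from 250 bases before to 50 after the gene's start, 5′ to 3′ on the gene's own strand. Capitals mark every match to a CHR, whose usual letters are TTTGAA and whose variant TTCGAA reads alike on both strands, to a CCAAT box, which shows as ATTGG where it lies on the other strand, or to an E2F site (TTTCCCGC, TTTGGCGC, TTTCGCGC or TTTGCCGC), searched on both strands. No motif's letters lie within another's. The Cenpa window is chr5:30666636-30666935 on the plus strand, that of Cdt1 chr8:122567765-122568064 on the plus strand, that of Cdk1 chr10:69352863-69353162 on the minus strand and that of Mad2l1 chr6:66534971-66535270 on the plus strand.
Cenpa: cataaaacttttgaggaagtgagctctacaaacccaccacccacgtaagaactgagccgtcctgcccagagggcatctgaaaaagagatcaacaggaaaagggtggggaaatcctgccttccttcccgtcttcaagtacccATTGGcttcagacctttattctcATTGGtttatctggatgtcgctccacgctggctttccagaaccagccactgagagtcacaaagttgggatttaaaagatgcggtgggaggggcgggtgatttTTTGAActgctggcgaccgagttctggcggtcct
Cdt1: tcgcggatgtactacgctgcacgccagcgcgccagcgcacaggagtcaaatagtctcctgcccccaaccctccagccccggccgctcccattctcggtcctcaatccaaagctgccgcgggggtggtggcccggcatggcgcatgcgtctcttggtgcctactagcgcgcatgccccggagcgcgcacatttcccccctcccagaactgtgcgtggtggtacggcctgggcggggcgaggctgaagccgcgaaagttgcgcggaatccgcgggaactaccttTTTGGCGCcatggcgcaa
Cdk1: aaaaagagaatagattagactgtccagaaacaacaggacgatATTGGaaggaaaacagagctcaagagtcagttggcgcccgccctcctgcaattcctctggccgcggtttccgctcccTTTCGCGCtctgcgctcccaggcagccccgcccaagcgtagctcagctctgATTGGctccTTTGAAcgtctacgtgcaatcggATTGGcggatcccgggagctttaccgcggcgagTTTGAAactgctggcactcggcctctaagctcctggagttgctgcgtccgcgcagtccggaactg
Mad2l1: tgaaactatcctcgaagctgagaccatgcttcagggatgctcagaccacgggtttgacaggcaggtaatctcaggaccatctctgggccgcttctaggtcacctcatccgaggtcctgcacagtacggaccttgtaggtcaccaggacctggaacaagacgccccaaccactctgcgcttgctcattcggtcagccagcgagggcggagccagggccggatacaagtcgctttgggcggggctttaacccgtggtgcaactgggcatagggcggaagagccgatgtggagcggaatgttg
Cenpa had CCAAT boxes beginning at -109 and -86 and a CHR at 17, counted from the gene's start. Cdk1 had CCAAT boxes at -208, -80 and -48, CHR letters at -71 and -15 and an E2F site at -131. Cdt1 had an E2F site at 33, and the Mad2l1 window held none of these letters.

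Windows were found for 31 of the 39 genes, 32 windows in all because 1 gene had a second start. CHR letters lay in 13 of 18 mitosis windows (72.2%) and 2 of 11 replication windows (18.2%), against 19.2% of all 32851 promoter windows of the same length. The order was the other way for E2F letters, which lay in 6 of 11 replication windows (54.5%) and 1 of 18 mitosis windows (5.56%), against 2.26% of all windows. CCAAT boxes were found in 15 mitosis windows (83.3%) and 8 replication windows (72.7%), against 37.4% of all windows. A CHR and a CCAAT box together lay in 72.2% of mitosis windows and 7.52% of all windows. Of the 3 G1 windows none held a CHR, and the one that held both an E2F site and a CCAAT box was Cdk2's. A match is a description of letters and not evidence of binding in these livers.

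**Figure D1:**
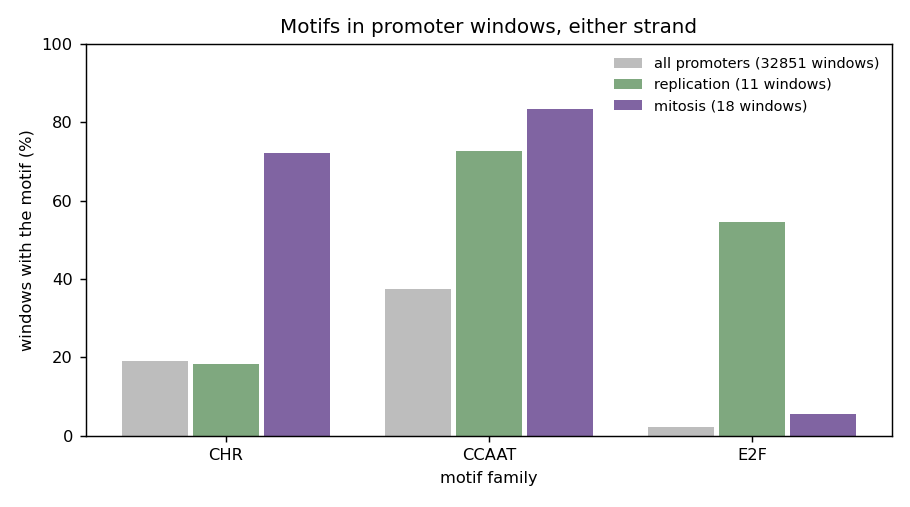
Percent of promoter windows that hold each motif family on either strand, for all 32851 windows, the 11 replication windows and the 18 mitosis windows. CHR letters lay in 72.2% of mitosis windows and 18.2% of replication windows, and E2F letters in 5.56% and 54.5%.

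Values are log2 expression, so that 1 unit is a 2-fold difference, and a difference is followed by the standard error of the limma fit. Array medians lay between 2.83 and 3.09, and the arrays of nintedanib mice 89 and 91 had the lowest median correlations to the other arrays (0.951 and 0.948). Both hepatocyte markers that were measured were high, with the mean of Pck1 and Tat between 9.78 and 10.6 in every mouse, and the other 12 listed hepatocyte markers were not analysed here. The title numbers split the mice into an earlier and a later run by the level of circadian genes. Dbp, an output gene of the clock, lay between 5.04 and 6.19 in the controls and mice 76 to 82 and between 8.79 and 9.27 in mice 83 to 94. Arntl, the core clock activator, lay between 5.90 and 6.69 and between 2.86 and 3.71 in the same mice. The run holds 6 of 9 vehicle mice in 76 to 82 and 1 of 10 nintedanib mice, so comparisons of the treatments are given with the run as well. The controls' title numbers (4, 49 and 50) lie apart from those of the model mice, the labels name no batch, and a batch cannot be told apart from the model in comparisons with controls. Wherever the run is used below, the controls are counted in the earlier run. They share its clock pattern, but no label places them there.

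Vehicle-treated model mice were compared with controls to ask what chronic injury did to these genes. In the model, 6 of the 39 genes rose and none fell at an adjusted p under 0.05 (limma, Benjamini-Hochberg over all genes), against 1.55% of all genes that rose and 0.971% that fell. They were the G1 gene Ccnd1, the replication gene Cdt1 and the mitosis genes Cdk1, Cenpa, Ccna2 and Mad2l1, with differences from 1.73-fold to 2.91-fold. By phase this was 1 of 5 G1 genes, 1 of 11 replication genes and 4 of 23 mitosis genes. At an unadjusted p under 0.05 there were 12 of the 39, all higher in the model, which are these 6 and a further 6 that missed the adjusted threshold. Of all genes, 13.9% had an unadjusted p under 0.05 in either direction. The difference was positive for 37 of the 39 genes, with a median of 0.21, while it was positive for 45.5% of all genes, with a median of -0.02. All 9 vehicle mice lay above all 3 controls for 7 of the 39 genes, against 2.49% of all genes. In whole tissue, more dividing cells and more RNA per cell cannot be told apart.

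**Figure D2:**
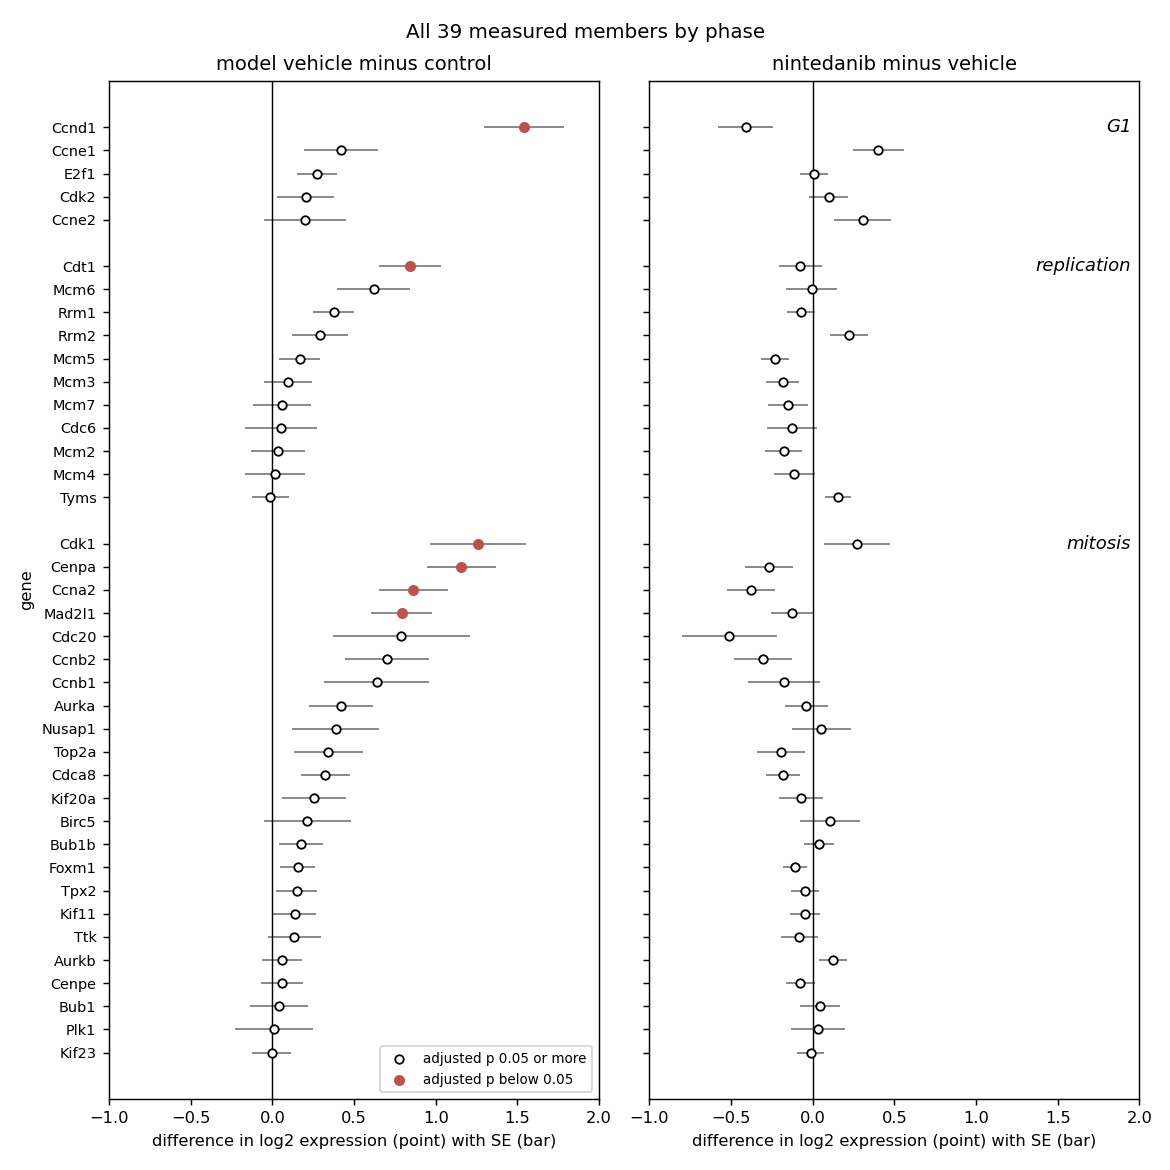
Difference in log2 expression (point) with its standard error (bar) for each of the 39 genes by phase, for model vehicle minus control on the left and nintedanib minus vehicle on the right. Filled points have an adjusted p under 0.05, which 6 genes reached on the left and none on the right.

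Among the G1 genes, cyclin D1 was the one that passed. Ccnd1 (Entrez 12443), which activates Cdk4 and Cdk6, stood at 5.93, 6.56 and 5.85 in control mice 4, 49 and 50, at 7.26 to 8.54 in vehicle mice (median 7.52) and at 6.42 to 7.96 in nintedanib mice (median 7.32). All 9 vehicle mice lay above all 3 controls, with mouse 92 far above the others. Ccnd1 was 1.54 ± 0.25 higher in the vehicle group (2.91-fold, adjusted p = 0.000479), and it passed whichever mouse was left out. Its neighbours in the pathway had smaller differences that missed the threshold. Cyclin E1 (Ccne1) differed by 0.42 ± 0.23 (adjusted p = 0.43), the transcription factor E2f1 by 0.27 ± 0.12 (adjusted p = 0.304), the cyclin E partner Cdk2 by 0.20 ± 0.18 (adjusted p = 0.683) and cyclin E2 (Ccne2) by 0.20 ± 0.25 (adjusted p = 0.815).

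Of the replication genes the licensing factor alone passed. Cdt1 (Entrez 67177), which brings the MCM helicase to origins, stood at 3.91, 4.31 and 3.99 in the controls, at 4.52 to 5.27 in vehicle mice (median 4.89) and at 4.14 to 5.29 in nintedanib mice (median 4.90). Every vehicle mouse exceeded every control, and 1 nintedanib mouse, 83, lay inside the control range. The difference between vehicle and control was 0.84 ± 0.19 (1.79-fold, adjusted p = 0.0119), and Cdt1 no longer passed without control mouse 4 or 50 (adjusted p up to 0.107). Rrm1, the large subunit of ribonucleotide reductase, was also higher in every vehicle mouse (4.90 to 5.20) than in every control (4.49 to 4.77), but its difference of 0.37 ± 0.13 missed the threshold (adjusted p = 0.124). The small subunit Rrm2 differed by 0.29 ± 0.17 (adjusted p = 0.477).

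The MCM helicase subunits did not move as 1 unit. Mcm6 had a difference of 0.62 ± 0.22 (adjusted p = 0.161), with controls at 3.89, 3.99 and 3.05 and vehicle mice between 3.63 and 4.89, so that the groups overlapped. The other 5 subunits had differences from 0.01 (Mcm4) to 0.17 (Mcm5) with standard errors of 0.12 to 0.18, and each had an adjusted p of 0.617 or more. The loading factor Cdc6 differed by 0.05 ± 0.22 and thymidylate synthase (Tyms) by -0.01 ± 0.12. Whether Mcm6 differed from the other subunits in its response was not tested.

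Mitosis supplied 4 of the 6 genes that rose. Cdk1 (Entrez 12534), the kinase that starts mitosis, stood at 3.17, 2.88 and 3.84 in the controls, at 4.14 to 5.09 in vehicle mice (median 4.51) and at 3.45 to 5.24 in nintedanib mice (median 5.11). Vehicle mice and controls did not overlap, and the difference was 1.26 ± 0.30 (2.39-fold, adjusted p = 0.0164). Cenpa (Entrez 12615), the histone variant that marks centromeres, stood at 3.45, 4.20 and 3.72 in the controls, at 4.61 to 5.15 in vehicle mice (median 5.00) and at 3.97 to 5.37 in nintedanib mice (median 4.79). It was 1.16 ± 0.21 higher in vehicle mice than in controls (2.23-fold, adjusted p = 0.00225) and passed whichever mouse was left out. Cdk1 did not pass without control mouse 4 or 49 (adjusted p up to 0.116).

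Ccna2 (Entrez 12428), cyclin A2, which acts in S phase and at mitotic entry, stood at 2.87, 2.94 and 3.20 in the controls, at 3.71 to 4.11 in vehicle mice (median 3.87) and at 2.80 to 4.42 in nintedanib mice (median 3.47). Its vehicle mice formed a narrow band above the controls, 0.86 ± 0.21 higher (1.82-fold, adjusted p = 0.0232). The spindle checkpoint gene Mad2l1 (Entrez 56150) stood at 4.39, 4.50 and 4.38 in the controls, at 4.86 to 5.70 in vehicle mice (median 5.22) and at 4.51 to 5.53 in nintedanib mice (median 5.17). All 19 model mice exceeded all controls for Mad2l1, and the difference between vehicle and control was 0.79 ± 0.19 (1.73-fold, adjusted p = 0.0165). These calls rested on the 3 controls, since Ccna2 did not pass when any 1 control was left out (adjusted p up to 0.141) and Mad2l1 did not pass without control mouse 4 or 50 (adjusted p up to 0.104).

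**Figure D3:**
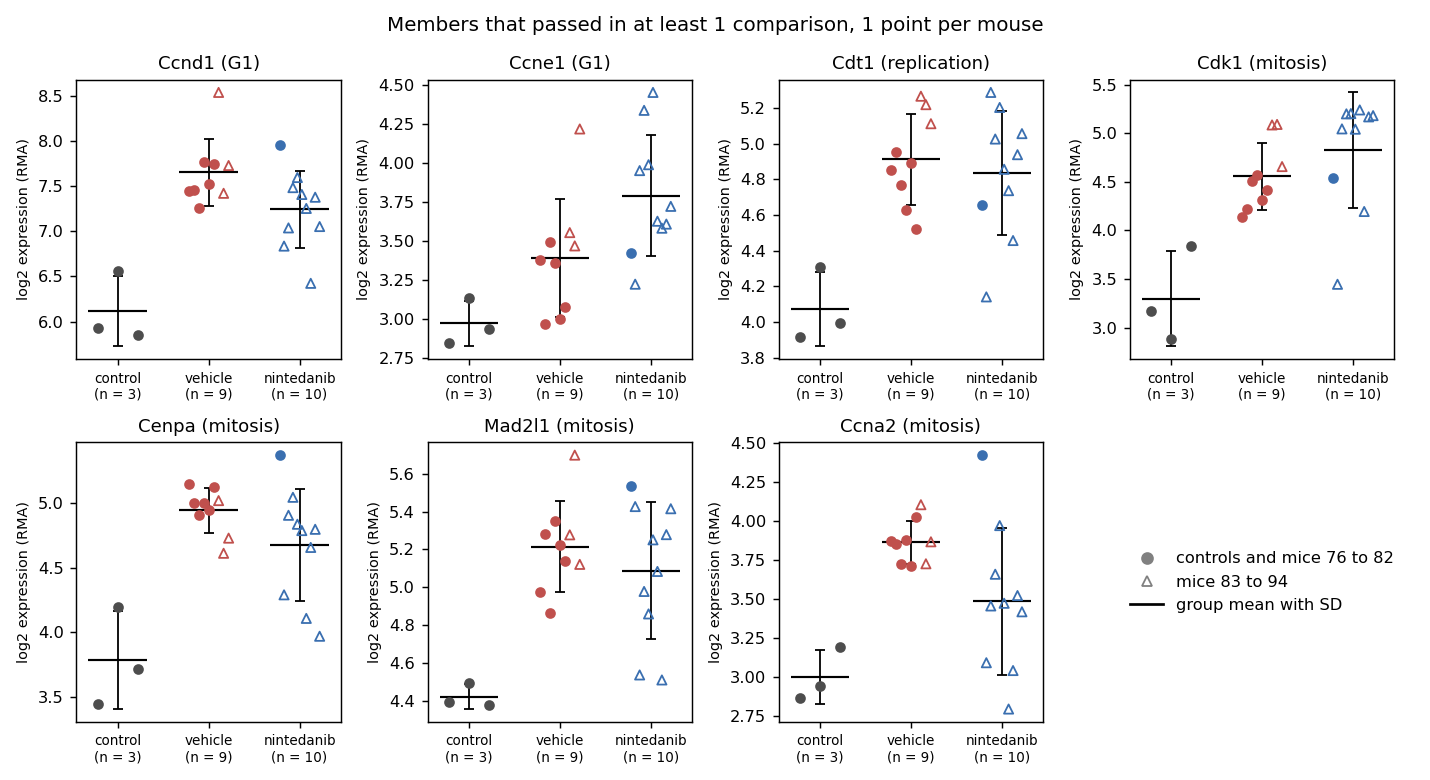
Log2 expression of the 7 genes that passed in at least 1 comparison, with 1 point per mouse and each group's mean and SD, in 3 control, 9 vehicle and 10 nintedanib mice. Filled points are controls and mice 76 to 82, and open triangles are mice 83 to 94. Vehicle mice lay above the controls for 6 of the genes, and nintedanib mouse 82 was the highest of its group for Ccnd1, Cenpa, Mad2l1 and Ccna2.

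The remaining 19 mitosis genes had differences of at most 0.79 and none passed. Cdc20, which activates the anaphase-promoting complex, differed by 0.79 ± 0.42 (adjusted p = 0.424), with controls at 4.59, 4.27 and 3.77 and vehicle mice spread from 4.06 to 5.90. Cyclin B2 (Ccnb2) differed by 0.70 ± 0.26 (adjusted p = 0.171) and cyclin B1 (Ccnb1) by 0.64 ± 0.32 (adjusted p = 0.389). Aurora kinase A (Aurka) differed by 0.42 ± 0.19 (adjusted p = 0.319), the chromosomal passenger protein gene Cdca8 by 0.32 ± 0.15 (adjusted p = 0.326) and topoisomerase II alpha (Top2a) by 0.34 ± 0.21 (adjusted p = 0.515). Aurkb, Bub1, Cenpe, Kif23 and Plk1 had differences of 0.06 or less in size. Signal strength moved with these calls. All 6 called genes were among the 23 whose mean array value exceeded that of the median gene, and of the 16 genes at or below it none passed and the median difference was 0.14. Array values near the background are compressed, and the part of this in the result was not tested.

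These rises were also seen among mice with the clock pattern of the earlier run. Among vehicle mice 76 to 81 against the controls, which share that run's clock pattern, the same 6 genes passed (limma on controls and mice 76 to 82), with Ccnd1 at 1.42 ± 0.17 (adjusted p = 0.000717), Cenpa at 1.24 ± 0.15 (adjusted p = 0.000846) and Cdk1 at 1.06 ± 0.18 (adjusted p = 0.00845). The difference was positive for 36 of the 39 genes in these mice, against 46.7% of all genes. Over all genes 209 rose. All of these mice are also in the comparison above, so this is not an independent result, and a batch of the controls would remain in it.

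Vehicle mice of the earlier and later runs were also compared with each other. Between vehicle mice 92 to 94 and 76 to 81, none of the 39 genes passed and 7 had an unadjusted p under 0.05 (limma over all genes on the 9 vehicle arrays), while 1.52% of all genes changed in either direction. There were 4 genes, Mcm6, Cdt1, Cdk1 and Top2a, that were higher in each of mice 92 to 94 than in each of mice 76 to 81, against 3.16% of all genes. The share of all genes with an unadjusted p under 0.05 was 10.9%. Cdk1 stood at 4.36 ± 0.17 (SD, n = 6) in mice 76 to 81 and at 4.94 ± 0.25 (SD, n = 3) in mice 92 to 94, a difference of 0.58 ± 0.14 (adjusted p = 0.0605). All 5 G1 genes had a positive difference in mice 92 to 94, with a median of 0.36, against -0.03 for the replication genes and 0.05 for the mitosis genes.

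The nintedanib group was compared with the vehicle group to ask whether the drug changed these genes in the injured liver. None of the 39 genes passed in either direction (limma), against 0.411% of all genes that rose and 0.276% that fell. At an unadjusted p under 0.05 there were 4 of the 39, with a positive difference for Ccne1 and a negative one for Ccnd1, Ccna2 and Mcm5, a share near the 10.6% of all genes. Ccnd1 was -0.41 ± 0.17 (0.752-fold, adjusted p = 0.345), Ccna2 -0.38 ± 0.15 (0.770-fold, adjusted p = 0.305), Mcm5 -0.23 ± 0.09 (adjusted p = 0.273) and Ccne1 0.40 ± 0.16 (1.32-fold, adjusted p = 0.313). The differences were negative for 26 of the 39 genes, with a median of -0.07. Over all 13392 genes, 6084 had a negative difference and the median was 0.01. With the run as a block the members' median was -0.02. Negative differences made up 9 of 11 in replication, 16 of 23 in mitosis and 1 of 5 in G1. The difference furthest from 0 was that of Cdc20, -0.51 ± 0.29 (adjusted p = 0.573), whose nintedanib mice ran from 3.69 to 6.25 and vehicle mice from 4.06 to 5.90.

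One mouse decided whether Ccna2 passed. Nintedanib mouse 82, the single treated mouse of the earlier run, had the highest Ccna2 value of its group at 4.42, against 2.80 to 3.97 in mice 83 to 91. Without it Ccna2 was lower with nintedanib, -0.48 (adjusted p = 0.0322, limma). It was the 1 gene of the 39 that passed in any fit of this comparison that left out a mouse. Calls over all 13392 genes also grew without mouse 82, from 55 higher and 37 lower to 117 higher and 113 lower. Ccna2 was thus called in a fit that called more genes of every kind. Mouse 82 was the highest nintedanib mouse for 15 of the 39 genes, 11 of them in mitosis, while it was the highest for 8.38% of all genes. Mouse 83 was the lowest for 15 of the 39 genes, against 10.6% of all genes.

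Within mice 83 to 94, which hold 9 nintedanib and 3 vehicle mice of the same clock pattern, none of the 39 genes passed and 6 had an unadjusted p under 0.05, all with negative differences (Ccnd1, Mcm6, Ccna2, Ccnb2, Top2a and Kif20a), and none of the 13392 genes passed, 695 of which (5.19%) had one under 0.05 (limma). The difference was negative for 31 of the 39 genes, against 43.5% of all genes, with a median of -0.10 against 0.03. It was -0.73 ± 0.24 for Ccnd1 (adjusted p = 0.882), -0.65 ± 0.23 for Ccnb2 (adjusted p = 0.934), -0.47 ± 0.16 for Mcm6 (adjusted p = 0.931), -0.52 ± 0.20 for Ccna2 (adjusted p = 0.955) and -0.34 ± 0.20 for Cdt1 (adjusted p = 0.955). Ccne1, 0.40 over all mice, was 0.09 ± 0.23 in this run, and Cdk1 went from 0.27 ± 0.20 over all mice to -0.09 ± 0.32. With the run as a block over all mice, Ccna2 was -0.22 ± 0.17 (adjusted p = 0.999), Ccne1 was 0.12 ± 0.17 (adjusted p = 0.999) and 1 of the 39 genes had an unadjusted p under 0.05.

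The mean of a phase's genes in each mouse was also taken, as a description. The mitosis mean was 2.81 to 2.93 in controls, 3.10 to 3.43 in vehicle mice and 2.86 to 3.63 in nintedanib mice, of which mouse 82 held the 3.63 and the others reached at most 3.26. Vehicle mice therefore lay above the controls without overlap, and mouse 83 at 2.86 was the nintedanib mouse inside the control range. The G1 mean was 3.75 to 4.09 in controls, 4.22 to 4.88 in vehicle mice and 4.06 to 4.79 in nintedanib mice. The replication mean was 3.62 to 3.95 in controls, 3.96 to 4.29 in vehicle mice and 3.72 to 4.15 in nintedanib mice, a smaller gap than in the other phases. Nintedanib minus vehicle over all mice was 0.08 for the G1 mean, -0.07 for the replication mean and -0.09 for the mitosis mean. Within mice 83 to 94 it was -0.15 for the G1 mean, -0.14 for the replication mean and -0.16 for the mitosis mean. In that run 2 of the 5 G1 genes had a positive difference and the G1 median was -0.05, with Ccnd1 at -0.73.

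**Figure D4:**
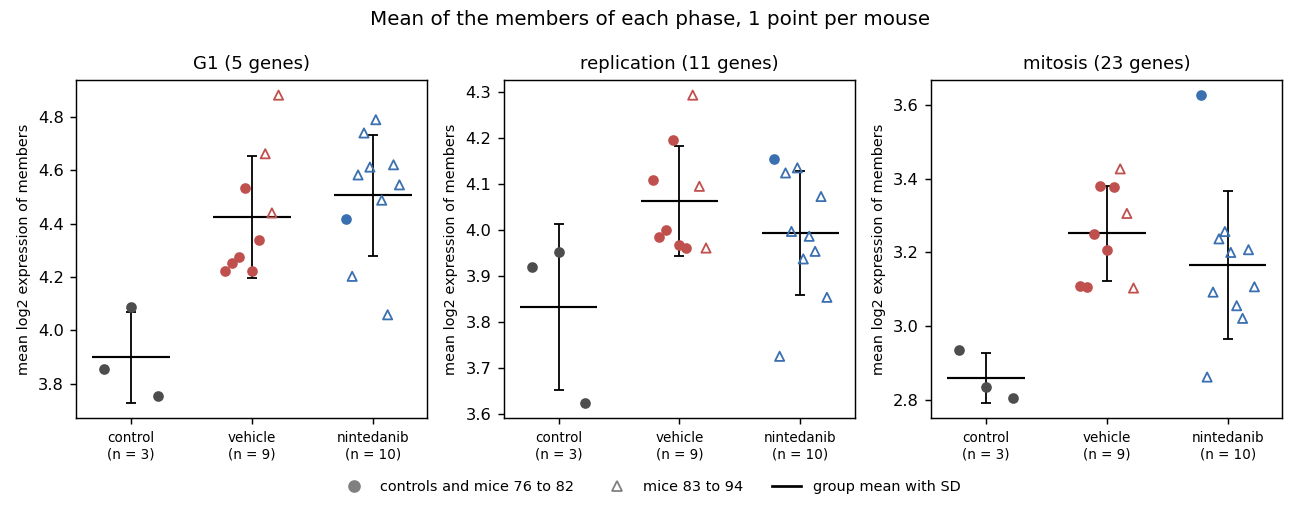
Mean log2 expression of the 5 G1, 11 replication and 23 mitosis genes in each mouse, with group means and SD for 3 control, 9 vehicle and 10 nintedanib mice. The mitosis mean was 2.81 to 2.93 in controls and 3.10 to 3.43 in vehicle mice, and nintedanib mouse 82 stood alone at 3.63.

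Nintedanib mice were also set beside the controls, which are the same 3 mice as above. Here 6 of the 39 genes rose and none fell (limma), against 2.87% of all genes that rose. Cdk1 was 1.53 ± 0.29 higher (2.89-fold, adjusted p = 0.00163), Ccnd1 1.13 ± 0.24 (2.19-fold, adjusted p = 0.00471), Cenpa 0.89 ± 0.21 (1.85-fold, adjusted p = 0.0102), Cdt1 0.76 ± 0.19 (1.70-fold, adjusted p = 0.0131), Mad2l1 0.66 ± 0.18 (1.58-fold, adjusted p = 0.0296) and Ccne1 0.82 ± 0.22 (1.77-fold, adjusted p = 0.0271). With the run as a block, Cenpa was the one gene of the 39 that passed (1.25 ± 0.25, adjusted p = 0.00634), against 1.06% of all genes that rose. The others had smaller or less certain differences, such as 0.38 ± 0.25 for Ccne1 (adjusted p = 0.636) and 1.12 ± 0.32 for Ccnd1 (adjusted p = 0.0714). Without control mouse 4, and likewise without control mouse 50, Cdk1 was the one gene of the 39 that passed. Of all 13392 genes, 199 and 211 rose in these fits, against 384 with all mice. Cyclin E1 (Ccne1, Entrez 12447), the partner of Cdk2 at the G1 to S transition, stood at 2.84, 3.13 and 2.93 in the controls, at 2.97 to 4.22 in vehicle mice (median 3.38) and at 3.22 to 4.45 in nintedanib mice (median 3.67). Nintedanib mice did not overlap the controls for Ccne1, whereas vehicle mice did.

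Other genes of the pathway were taken from lists of G1 and E2F genes, kinase inhibitors, replication genes and mitosis genes, of which 130 were measured. In vehicle mice against controls 2 of the 130 rose and none fell, a share near the 1.55% of all genes that rose, and the median difference was 0.06. One was Cdkn2c, which encodes the Cdk4 and Cdk6 inhibitor p18 (INK4C), with controls at 4.36, 4.79 and 4.19 and vehicle mice between 5.32 and 6.11 (median 5.93). It had the smallest p of the cell cycle genes, 1.44 ± 0.14 (2.71-fold, adjusted p = 4.995e-07), and all vehicle mice lay above all controls. The other was Nek2, a centrosome kinase, at 1.31 ± 0.33 (2.48-fold, adjusted p = 0.0291), which did not pass without control mouse 4 or 50 (adjusted p up to 0.213). Nek2 also missed the threshold in the limma fit of controls and mice 76 to 82 (1.32, adjusted p = 0.0881). By list, 1 of 10 kinase inhibitors, 1 of 62 other mitosis genes, 0 of 37 other replication genes and 0 of 21 other G1 and E2F genes passed. Of the lists with no call (limma), the replication genes had 5 and the G1 and E2F genes 1 at an unadjusted p under 0.05. With the run as a block, 4 of the 130 were higher (Cdkn2c, Nek2, Ect2 and Pkmyt1), against 1.85% of all genes. Against 1.06% of all genes, 1 was lower, the replication factor Mcm10, at -0.68 ± 0.18 (adjusted p = 0.0441).

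With nintedanib, Cdkn2c was higher still, at 6.15 to 6.52 (median 6.39), above every vehicle mouse, by 0.45 ± 0.10 over the vehicle group (1.37-fold, adjusted p = 0.0227). Cyclin D2 (Ccnd2), a relative of cyclin D1, was lower by the fitted difference of -0.34 ± 0.08 (0.788-fold, adjusted p = 0.032). These were the 2 calls among the 130 genes, against 0.411% of all genes that rose and 0.276% that fell. Neither held with the run as a block, where Cdkn2c was 0.32 ± 0.11 (adjusted p = 0.722) and Ccnd2 -0.23 ± 0.09 (adjusted p = 0.842). Against controls, nintedanib mice had 8 of the 130 genes higher and 1 lower, again with the same controls, against 2.87% of all genes higher and 2.99% lower. Those higher included Cdkn2c, Cdkn1c, which encodes the inhibitor p57, the DNA ligase Lig1, and the mitosis genes Ect2, Pkmyt1, Spc25 and Wee1. The lower gene was Ccnf, which encodes cyclin F, at -1.20 ± 0.29 (0.434-fold, adjusted p = 0.0116). With the run as a block 2 of the 130 were higher, Cdkn1a and Cdkn2c, and 1 was lower, Mcm10 at -0.92 ± 0.22 (adjusted p = 0.0283). The shares of all genes in that fit were 1.06% higher and 0.762% lower. Cdkn1c, Lig1, Ect2, Pkmyt1 and Spc25 then did not pass, with adjusted p of 0.455, 0.451, 0.0905, 0.076 and 0.315.

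Wee1 values separated by the run of the mice. Wee1, the kinase that holds Cdk1 inactive, lay between 3.56 and 4.48 in the controls and mice 76 to 82 and between 5.93 and 6.57 in mice 83 to 94, so that no mouse of one run reached the other. Vehicle mice 92 to 94 exceeded vehicle mice 76 to 81 by 2.04 ± 0.14 (adjusted p = 3.99e-06, limma on the vehicle arrays). Wee1 was 1.89 ± 0.48 higher in nintedanib mice than in controls (adjusted p = 0.0168) and 0.06 ± 0.20 with the run as a block (adjusted p = 0.96). Gadd45a, a stress gene whose product binds cell cycle proteins, also differed between the vehicle runs, by 1.17 ± 0.23 (adjusted p = 0.0203). Ccnf was -0.48 ± 0.29 against controls with the block (adjusted p = 0.591), and between the vehicle runs, whose mice overlapped, it differed by -0.71 ± 0.18 (adjusted p = 0.0932).

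**Figure D5:**
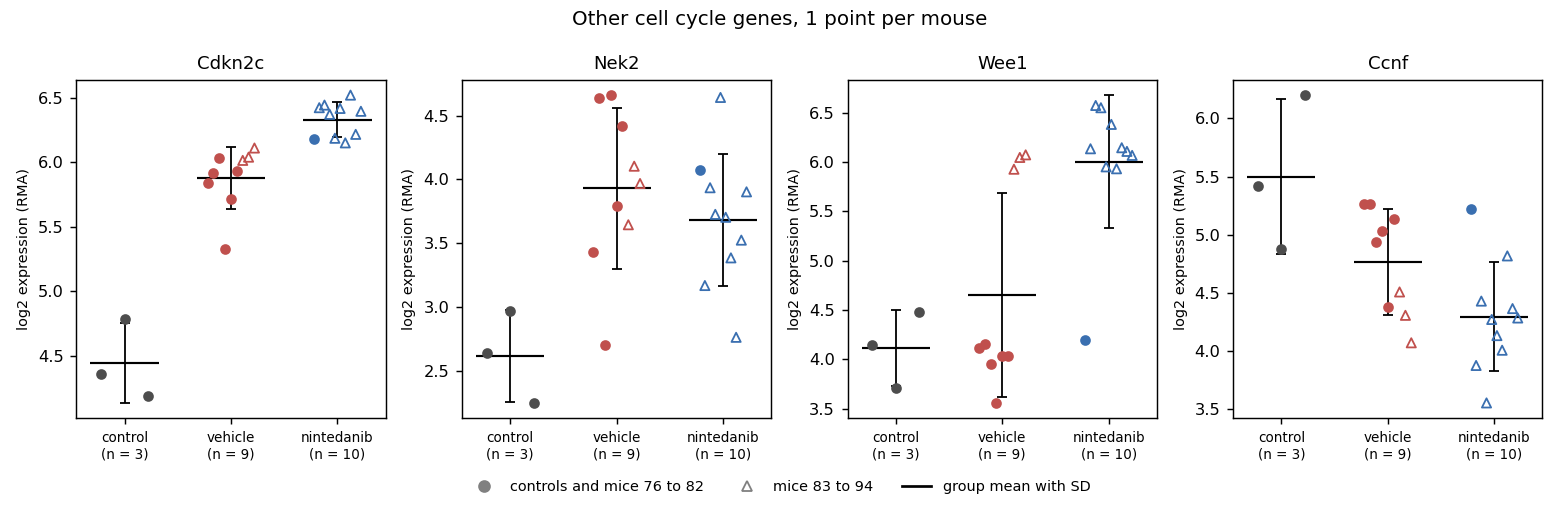
Log2 expression of Cdkn2c, Nek2, Wee1 and Ccnf with 1 point per mouse and each group's mean and SD, in 3 control, 9 vehicle and 10 nintedanib mice. Wee1 lay between 5.93 and 6.57 in the open triangles (mice 83 to 94) and between 3.56 and 4.48 in all other mice, and Cdkn2c rose from 4.19 to 4.79 in controls to 5.32 to 6.11 in vehicle mice.

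Markers of several cell types were higher in the same vehicle mice. Of macrophage markers 3 of 12 rose (limma), against 1.55% of all genes, with a list mean of 4.46 to 4.74 in controls and 5.11 to 5.94 in vehicle mice. Of stellate cell and myofibroblast markers 4 of 10 rose, with list means of 5.08 to 5.26 and 5.63 to 6.17. For neutrophils 2 of 6 rose (3.66 to 3.98 and 4.29 to 4.63), for B and plasma cells 3 of 7 (3.12 to 3.32 and 3.63 to 4.07), for T and NK cells 1 of 13 (2.75 to 2.94 and 3.04 to 3.40) and for endothelial cells 2 of 9 (4.80 to 5.07 and 5.14 to 5.58). For cholangiocytes and progenitor cells 1 of 10 rose, with list means of 3.42 to 3.62 in controls and 3.57 to 4.07 in vehicle mice, which overlapped, and 0 of 4 erythroid markers passed, with none at an unadjusted p under 0.05. The array scale has no true zero, so no marker can be called absent.

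In nintedanib mice the list means were 5.06 to 5.84 for macrophages, 5.67 to 6.28 for stellate cells and myofibroblasts, 4.04 to 5.05 for neutrophils, 2.95 to 3.49 for T and NK cells, 3.34 to 3.78 for B and plasma cells, 4.84 to 5.20 for endothelial cells and 3.70 to 4.08 for cholangiocytes and progenitors. In nintedanib against vehicle (limma), 1 B and plasma cell marker fell, Jchain (-0.73 ± 0.17, adjusted p = 0.0475). Of endothelial markers 1 fell, Cldn5 (-0.61 ± 0.14, adjusted p = 0.032), which was named after its value was seen. Among all genes 0.276% fell. With the run as a block, 0 of the 13392 genes fell, so neither of these falls held. The erythroid list mean was 3.68 to 3.98 in vehicle mice and 3.49 to 4.01 in nintedanib mice. The part of these cell types in the values of the cell cycle genes was not tested.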

How the data were processed

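Each mouse gave RNA from 20 mg of non-tumour liver for 1 Affymetrix HT MG-430 array, as the labels' protocols and the design text state. The authors deposited log2 expression, made with the robust multiarray average (RMA) over custom probe sets of 1 Entrez gene each, per the series' design text. RMA makes the distribution alike on every array, so a shift of all genes together would not show. Symbols came from the RefSeq gene table of GRCm38.p6, which named 13242 of 13392 genes.

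All 22 arrays (3 control, 9 vehicle, 10 nintedanib) entered 1 limma fit (version 3.58.1, R 4.3.3) with a mean per group (eBayes, 19 residual degrees of freedom), without a filter, and its 2-sided p-values had a Benjamini-Hochberg adjustment over all 13392 genes at a threshold of 0.05. Every adjusted p in the text is from limma. The mice are separate animals, and their number limits the precision. A phase mean is the mean log2 value of its genes in a mouse. Folds are 2 raised to the log2 difference.

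The genes, lists and the boundary between runs were chosen with earlier results of these data known. Per-mouse values were given for genes that passed in any comparison, up to 5 genes per other cell cycle list and up to 3 per marker list could be named by smallest p, and those printed were picked among these after their values were seen. The alternatives left out the dimmest 25% of genes, centred the arrays or quantile-normalized them again, used array weights or a robust variance with a trend, fitted 2 groups alone, or took the run as a block, 1 run at a time, the data without arrays 89 and 91, thresholds of 0.01 and 0.1, or all mice but 1. The comparison of vehicle runs was added after the values were seen.

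The fit was tested on simulated data (5 draws, 200 of 13392 genes changed). The noise was normal, drawn separately for each gene, and held no difference between runs. The rates therefore do not cover the overlap of run with treatment in the real data. Log2 changes of 0.5, 1 and 2 were recovered in 35.5, 89.3 and 99.7% of cases for vehicle against control (4.48% false calls), in 69.3, 98.5 and 100% for nintedanib against vehicle (5.51%) and in 35.8, 89.9 and 98.8% for nintedanib against control (5.44%).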

Additional observations from a re-analysis of the deposited data

Results flagged for a closer look

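In 152 checks of a gene or phase mean within the vehicle or the nintedanib group, 14 had 1 mouse far from the others by Dixon's criterion. Chance gives about 1 in 20 for a single check. The checks share mice, and a phase mean holds genes that were also checked alone. They are therefore not independent, and the 14 cannot be read directly against that rate. Nintedanib mouse 82 accounted for 6 of the 14. It stood at 3.63 for the mitosis mean (others 2.86 to 3.26), at 3.95 for Ccnb1 (others 1.58 to 2.75), at 3.92 for the survivin gene Birc5 (others 2.30 to 3.16), at 3.60 for the kinesin Kif20a (others 2.38 to 2.81) and at 4.52 for the spindle gene Nusap1 (others 2.70 to 3.64). It was low for Wee1 at 4.19 (others 5.93 to 6.57), the gene that differed between runs, and mouse 82 is the nintedanib mouse of the earlier run. Ccnb1, Birc5, Kif20a and Nusap1 did not pass in any of the 3 comparisons.

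Among vehicle mice, mouse 92 had 8.54 for Ccnd1 (others 7.26 to 7.76) and mouse 94 had 4.22 for Ccne1 (others 2.97 to 3.55). Mouse 79 had 4.57 for the Polo kinase Plk1 (others 3.46 to 3.83) and 5.33 for Cdkn2c (others 5.72 to 6.11). Mouse 93 had 3.91 for Gadd45g (others 6.24 to 8.18), and mouse 77 had 3.09 for the replication gene Gins3 (others 2.57 to 2.83). Among nintedanib mice, mouse 89 had 3.03 for Tyms (others 2.38 to 2.72) and mouse 91 had 3.23 for Cdkn1c (others 3.95 to 4.67), and these are the arrays with the lowest correlation to the rest.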

How the results depend on the processing

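The same 6 genes rose in vehicle mice against controls under all 9 alternatives other than the thresholds and the fits without 1 mouse, and at a threshold of 0.01 the count was 2. Leaving out each mouse gave 2 to 6 genes, with the fall due to the controls: without mouse 4 Ccnd1 and Cenpa remained, without mouse 49 Ccnd1, Cdt1, Cenpa and Mad2l1, and without mouse 50 Ccnd1, Cdk1 and Cenpa. The count over all genes fell as well, from 208 higher with all mice to 94, 195 and 88 without mouse 4, 49 and 50. Among the members the median difference was 0.18 to 0.31 when each mouse was left out. For nintedanib against vehicle, leaving out each mouse gave 0 to 1 lower and 0 higher, with medians from -0.09 to -0.03, and the calls over all genes went from 55 higher and 37 lower to 6 higher and 0 lower with the run as a block (663 at an unadjusted p under 0.05). For nintedanib against control, the count of 6 became 1 with the run as a block and 2 at a threshold of 0.01, and 1 to 7 when each mouse was left out, with medians from 0.18 to 0.31. Over all genes the count higher in this comparison went from 384 to 142 with the block. It was 199, 276 and 211 without control mouse 4, 49 and 50. The 3 controls and the overlap of run with treatment limit these results. No paired analysis was possible because the groups share no replicate numbers.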
